A study of Bos indicus with 8 samples.

Results

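The EGF-like growth factors of cumulus cells, their receptors, the proteases that release them and a feedback inhibitor of the receptor were followed in a microarray study of follicle-stimulating hormone (FSH), the pituitary hormone that drives follicle growth. The members were taken by gene symbol, as all probes that the platform annotation assigns to AREG, BTC, HBEGF, TGFA, EGFR, ERBB2, ERBB3, ADAM17, ADAM10 or ERRFI1. Of these 10 symbols 9 had a probe, out of 15229 gene symbols on the array, and together they had 13 of the 43794 probes with values. ERBB2 had no probe under that symbol. BTC and ADAM17 had 3 probes each and the other 7 genes had 1 each. After a filter on dim signal, 12 probes of 8 genes were tested, and TGFA was the gene that dropped out.

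Cumulus-oocyte complexes were aspirated from follicles of 3 to 6 mm in slaughterhouse ovaries and cultured for 6 h. The control medium held 17β-oestradiol (1 µg/ml), 10% fetal bovine serum, pyruvic acid (0.2 mM), gentamicin and adenosine (3 mM), and the FSH medium held the same plus recombinant human FSH (0.5 µg/ml), so both groups carried adenosine and serum. There were 4 FSH pools and 4 control pools of cumulus cells, and the labels give 10 per pool without naming what was counted. FSH and control pools with the same replicate number shared 2 two-colour arrays, 1 for each dye orientation, for a total of 8. All 4 arrays with FSH in Cy5 lay on one slide and all 4 with FSH in Cy3 on the other. The labels give Bos indicus and call the 4 replicates biological, without saying which animals entered which pool, so p-values measure the spread between these pools.

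EGF-like growth factors are made as transmembrane precursors, and metalloproteases of the ADAM family cut them free at the cell surface. The freed ligand binds EGFR or a related ERBB receptor, which forms pairs and signals through RAS and ERK. In the ovulating follicle of the mouse, AREG, EREG and BTC made by granulosa cells pass the luteinizing hormone signal on to the cumulus, where EGFR activity drives matrix expansion and oocyte maturation. FSH is widely used in culture to start the same program in isolated complexes.

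The arrays differed in brightness. The share of probes above a limit taken from negative control spots ran from 42.5% to 78.8% per array in Cy3 and from 33.9% to 86.4% in Cy5. The lowest share in Cy3 belonged to FSH pool 1, with a limit of 142.1 on that array. The lowest share in Cy5 and the share of 46.3% in Cy3, the next lowest there, belonged to control pool 3, whose limits were the highest of the 8 arrays, at 192.1 in Cy3 and 82.2 in Cy5. All 10 granulosa and cumulus markers were tested, and their mean log2 signal lay between 10.15 and 10.62 in the FSH pools and between 10.25 and 10.63 in the control pools. Of these 10 markers 8 had a mean log2 ratio of FSH over control below 0, and the median ratio was -0.22. At an unadjusted p under 0.05 in limma, 2 of the 10 were lower with FSH and 1 was higher. The 15 oocyte markers averaged 7.43, 7.43, 7.39 and 7.31 in FSH pools 1 to 4. Control pools 1 to 4 stood at 7.45, 7.44, 7.90 and 7.64. Every FSH mean lay below every control mean, but in replicates 1 and 2 the groups were nearly equal. Control pools 3 and 4 carried the most oocyte signal. Of single tested probes, 1.61% had all FSH pools below all control pools. Some oocyte markers were dim: ZP2 and ZAR1 exceeded the limit on 1 of 8 arrays with FSH, UCHL1 and FIGLA on all 8. Of these 15 markers 11 had a mean ratio below 0, and the median ratio was -0.39. At an unadjusted p under 0.05 in limma, 2 of the oocyte markers were lower with FSH and 1 was higher. Over all 13319 tested genes 6512 had a mean ratio below 0, and 5.9% were lower and 6.68% higher at that threshold. The part of oocyte RNA in the ratios below was not tested. Markers of theca and stroma (8.26 to 8.43 with FSH and 8.28 to 8.46 in controls), endothelium, immune cells and red blood cells overlapped between the groups. Of the usual FSH response genes of cumulus, PTGS2, a prostaglandin synthase gene, had a log2 ratio with FSH of 0.21 ± 0.17 (SD, n = 4), and the ratio was -0.15 ± 0.29 for HAS2, which makes hyaluronan, -0.13 ± 0.51 for PTX3, 0.083 ± 1.12 for TNFAIP6 and -0.14 ± 0.75 for FSHR, and 0 of these 5 passed the limma test. The HAS2 probe exceeded the limit on only 4 of 8 arrays with FSH and 5 of 8 with control. PTGS2 and TNFAIP6 did so on 8 of 8 and 6 of 8, and PTX3 and FSHR on all 8 in both channels. In bulk RNA of this kind, fewer cells of a type and less RNA per cell cannot be told apart.

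The comparison of FSH with control asked whether the hormone changed these transcripts in the presence of adenosine. In the limma fit over all tested probes, 0 of the 12 member probes passed at an adjusted p under 0.05, against a background of 0% (0 of 35978 probes, lowest adjusted p 0.174). At an unadjusted p under 0.05 there were 5 member probes, against 10.4% of all tested probes (3736). The 4 that were higher with FSH, 3 of BTC and 1 of ADAM17, stand against 5.83% of all probes, and the 1 that was lower, of HBEGF, against 4.56%. The count of 5 covers probes that share a target gene. It was 2 without replicate 3, against 11.5% of all probes, and also 2 without replicate 4, against 6.23%. With the ratios computed anew from the scanner intensities it was 1 after loess, against 7.49% of all probes, 4 after median centring, against 6.43%, and 3 with no background correction, against 9.43%, so it varied with single replicates and with the normalization. When limma took the 8 arrays singly with a replicate block, 0 member probes passed, against 1.98% of all probes, and with a dye term added also 0, against 1.29%. The median log2 ratio was 0.15 over the 12 member probes and 0.0076 over all tested probes. Mean ratios were above 0 for 10 of the 12, against 52.3% of all probes, and from the scanner intensities for 6 of the 12 after loess, 9 after median centring and 7 with no background correction, against 51.3%, 55.9% and 50% of all probes. With each gene represented by its brightest probe, 6 of the 8 member genes had a mean above 0, against 6807 of 13319 genes. Of these 8 genes 1 was higher and 1 lower at an unadjusted p under 0.05 in limma, against 6.68% and 5.9% of all genes. Single values from the scanner intensities below are those after loess unless stated.

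Most members gave weak signals, which bears on every ratio below. The spot intensity was divided by the limit of its own array and channel (negative control spots, mean plus 2 SD). The brightest BTC probe lay at 17.3 to 38.95 times the limit in the FSH channel, and the brightest ADAM17 probe at 7.70 to 17.78 times. ERBB3 lay at 3.18 to 8.59 times the limit and ERRFI1 at 1.52 to 2.73. EGFR, ADAM10, AREG and HBEGF had medians of 1.40, 1.29, 1.09 and 1.03 in the FSH channel, so their arrays straddled the limit or lay just above it. TGFA had medians of 0.897 and 0.873 in the FSH and control channels, and exceeded the limit on 2 of 8 arrays with FSH and on 0 of 8 with control. Intensities of different probes reflect their own binding as well as the transcript, so the order of probes is not an order of transcript levels.

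**Figure D1:**
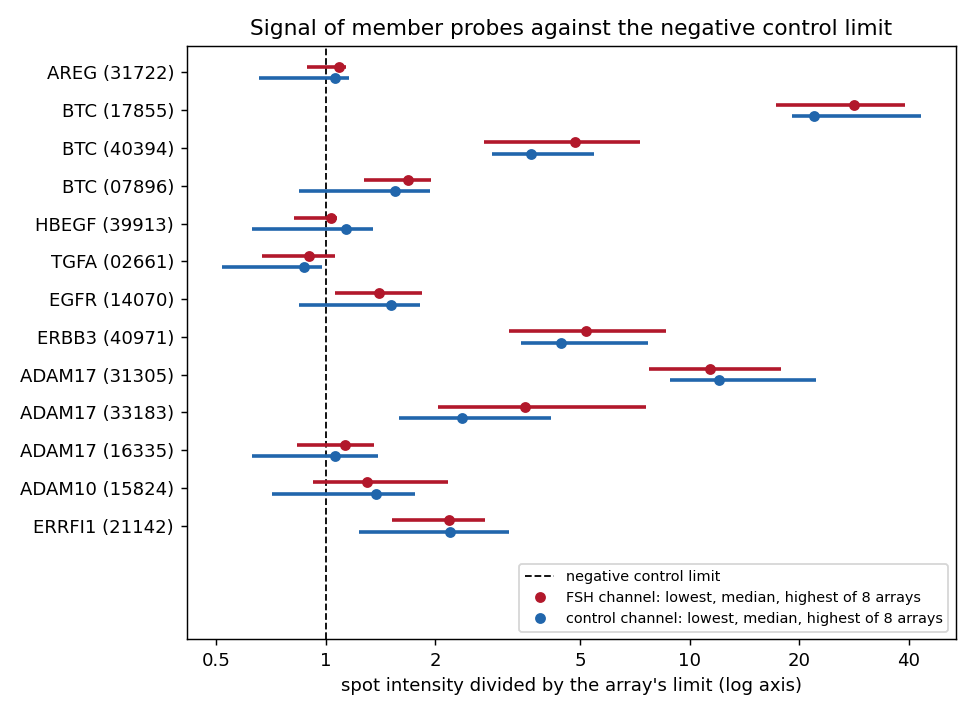
Spot intensity of each member probe divided by the negative control limit of the same array and channel, on a log axis. Lines run from the lowest to the highest of 8 arrays and points mark the median, with the FSH channel in red and the control channel in blue. The brightest BTC and ADAM17 probes stand far to the right of the limit, while AREG, HBEGF and TGFA sit on it.

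BTC, betacellulin, is a ligand that binds EGFR and ERBB4. All 3 of its probes had mean ratios above 0 with FSH. The brightest probe, EMBV3_17855, had log2 ratios of 0.40, -0.065, 0.27 and 0.40 in replicates 1 to 4. It was above 0 in 3 of 4 replicates, with replicate 2 close to 0. Its mean was 0.25 ± 0.22 (SD, n = 4), with a 95% interval of 0.0050 to 0.50 and an adjusted p of 0.475 in limma. Probe EMBV3_40394 had ratios of 0.048, 0.21, 0.43 and 0.79, a mean of 0.37 ± 0.32 and an adjusted p of 0.425 in limma. Here all 4 replicates were above 0, and replicate 4 was the largest while replicate 1 was close to 0. Probe EMBV3_07896 had ratios of 0.053, 0.20, 0.33 and 0.35, a mean of 0.23 ± 0.14 and an adjusted p of 0.436 in limma. A ratio above 0 in all 4 replicates was found for 11.3% of all tested probes. No member probe had all FSH pools above all control pools, as 1.56% of tested probes did.

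The pools behind the BTC ratios overlapped between the groups. On the log2 scale of the normalized channel signals, EMBV3_17855 stood at 10.68, 10.63, 11.10 and 11.13 in FSH pools 1 to 4 and at 10.47, 10.65, 10.92 and 10.75 in the control pools. The FSH pools 3 and 4 were the highest and control pool 1 the lowest. EMBV3_40394 stood at 8.28, 8.42, 8.75 and 8.89 in the FSH pools and at 8.23, 8.21, 8.46 and 8.22 in the controls, where FSH pools 3 and 4 again stood above all controls and control pool 3 above the other controls. EMBV3_07896 stood at 7.36 to 7.42 with FSH and at 7.26 to 7.41 in controls, a range in which the offset used in background correction compresses differences. Across the 8 pools, which share arrays in pairs, the signals of EMBV3_17855 and EMBV3_40394 had r = 0.89, whereas EMBV3_07896 had r = -0.046 with the first and 0.28 with the second. The 3 BTC probes kept a mean above 0 under all 13 alternatives tried, from 0.18 to 0.36, 0.23 to 0.48 and 0.066 to 0.30. The changed filters and the blocked fits leave the mean as it is, so they could not turn its direction. Nor could leaving out a replicate for the probes with all 4 replicates above 0. None of the 13 alternatives gave an adjusted p under 0.05 in limma, and the lowest was 0.109, for EMBV3_40394 with the replicate block.

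**Figure D2:**
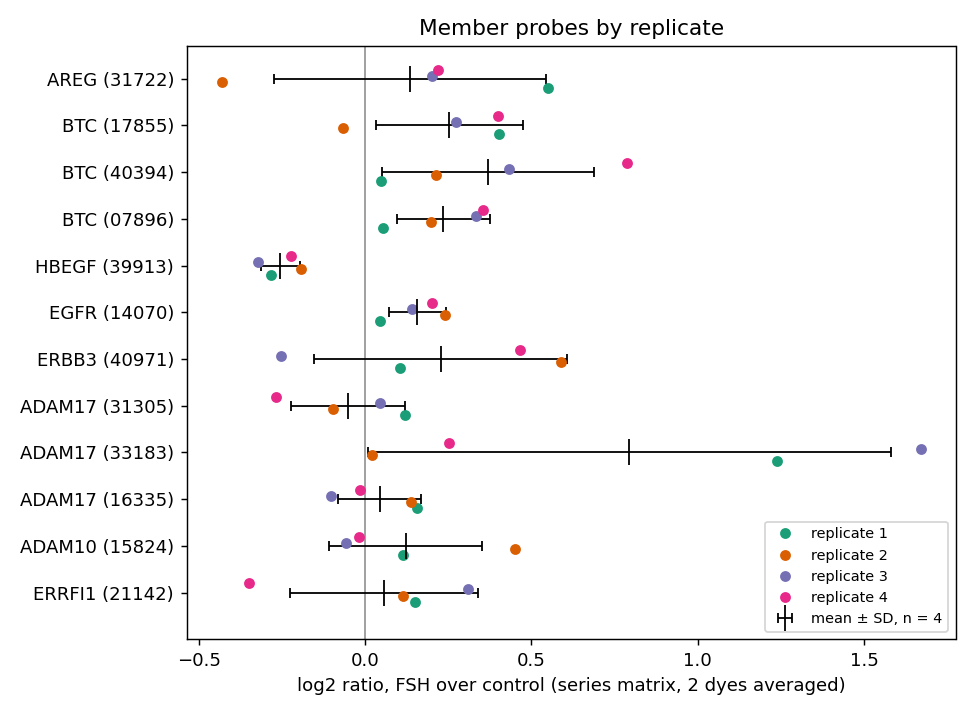
Log2 ratio of FSH over control for each member probe, named by its gene and the last digits of the probe name, without TGFA. Points are the 4 replicates, each the mean of its 2 dye orientations, and bars give the mean ± SD (n = 4). The 3 BTC probes lie mainly to the right of 0, HBEGF to the left, and 1 ADAM17 probe has replicates 1 and 3 far from replicates 2 and 4.

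AREG, amphiregulin, is the EGFR ligand most often followed as an FSH or luteinizing hormone target in cumulus cells. Its only probe, EMBV3_31722, had log2 ratios of 0.55, -0.43, 0.20 and 0.22 in replicates 1 to 4. Replicates 1 and 2 lay on opposite sides of 0. The mean was 0.14 ± 0.41 (SD, n = 4), with a 95% interval of -0.24 to 0.51 and an adjusted p of 0.807 in limma. The probe exceeded the limit on 7 of 8 arrays with FSH and on 5 of 8 with control, at 0.887 to 1.13 and 0.653 to 1.16 times the limit. The pool signals were 6.87 to 6.98 with FSH and 6.89 to 6.96 in controls and overlapped. Arrays with FSH in Cy5 averaged 0.35 and those with FSH in Cy3 -0.078, and the mean was -0.0032 without replicate 1 and 0.32 without replicate 2. From the scanner intensities the mean was 0.016, at a signal where the offset used in background correction compresses differences.

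HBEGF, heparin-binding EGF-like growth factor, is a membrane-anchored ligand of EGFR and ERBB4. Its log2 ratios were -0.28, -0.19, -0.32 and -0.22 in replicates 1 to 4. All 4 were below 0, as was the case for 8.04% of all tested probes, and they lay close together. The mean was -0.25 ± 0.058 (SD, n = 4), with a 95% interval of -0.43 to -0.078 and an adjusted p of 0.375 in limma. Its pool signals were 6.95, 6.96, 6.97 and 6.96 with FSH and 7.02, 7.03, 7.00 and 7.06 in controls. All FSH pools lay below all control pools, as for 1.61% of tested probes, though the nearest pools, FSH pool 3 and control pool 3, differed by 0.029. The orientations lay apart: the mean was -0.53 with FSH in Cy5, with all 4 arrays below 0, while arrays with FSH in Cy3 averaged 0.017 and lay on both sides of 0. The test of that difference gave -0.54 ± 0.40 (SD, n = 4) and an adjusted p of 0.0516 in limma, and 9.79% of all probes passed this test. HBEGF exceeded the limit on 7 of 8 arrays with FSH and on 6 of 8 with control. Its mean from the scanner intensities was -0.064, at a signal where the offset used in background correction compresses differences. After loess it was the 1 member probe with an unadjusted p under 0.05 in limma, against 7.49% of all probes. It stayed under 0.05 when any replicate was left out, but not with FSH in Cy3 alone or with the replicate block.

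TGFA, transforming growth factor alpha, is a further EGFR ligand. Its probe, EMBV3_02661, was not well above background in the control channel of any array and is given no ratio.

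EGFR, the receptor for AREG and TGFA, had log2 ratios of 0.044, 0.24, 0.14 and 0.20 in replicates 1 to 4. All 4 were above 0, with replicate 1 the closest to it. The mean was 0.16 ± 0.086 (SD, n = 4), with a 95% interval of -0.028 to 0.34 and an adjusted p of 0.541 in limma. Both dye orientations gave means above 0, at 0.14 and 0.18. The direction turned, however, with each of the 3 ways of computing ratios from the scanner intensities, which gave -0.042, -0.032 and -0.068. The pool signals from that source were 7.20 to 7.33 with FSH and 7.29 to 7.32 in controls, and the groups overlapped.

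ERBB3 is a receptor of the neuregulins with little kinase activity of its own, which signals in a pair with ERBB2. Its log2 ratios were 0.11, 0.59, -0.25 and 0.47. Replicate 3 lay below 0 and replicates 2 and 4 well above it. The mean was 0.23 ± 0.38 (SD, n = 4) and the adjusted p 0.635 in limma. The orientations gave values of the same sign in these replicates: replicate 3 stood at -0.23 with FSH in Cy5 and at -0.27 with FSH in Cy3, and replicate 2 at 0.68 and 0.49. Without replicate 3 the mean was 0.39, with an adjusted p of 0.328 in limma. It was 0.11 without replicate 2 and 0.15 without replicate 4, with adjusted p of 0.893 and 0.872 in limma. Pool signals were 8.36 to 8.87 with FSH and 8.22 to 8.83 in controls, where control pool 3 was the highest.

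ADAM17, also called TACE, releases AREG, HBEGF and TGFA from their precursors, and in pig cumulus cells it is known to act in the FSH response. Its 3 probes gave different ratios. The brightest probe, EMBV3_31305, had log2 ratios of 0.12, -0.097, 0.045 and -0.27, a mean of -0.050 ± 0.17 (SD, n = 4) and an adjusted p of 0.888 in limma. Its pool signals were 9.98, 9.68, 9.89 and 9.52 with FSH and 9.72, 9.82, 9.83 and 9.83 in controls, so FSH pools 1 and 3 lay above every control and FSH pools 2 and 4 below every control. The dimmest probe, EMBV3_16335, had ratios of 0.16, 0.14, -0.10 and -0.014 and a mean of 0.044 ± 0.12, and exceeded the limit on 5 of 8 arrays with FSH and on 6 of 8 with control.

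The probe EMBV3_33183 had the widest spread of ratios among the members. Its log2 ratios were 1.24, 0.021, 1.67 and 0.25, so replicates 1 and 3 were high and replicates 2 and 4 close to 0. The mean was 0.80 ± 0.79 (SD, n = 4), with a 95% interval of 0.13 to 1.46 and an adjusted p of 0.425 in limma. The high replicates were alike in both dye orientations, replicate 1 at 1.25 and 1.23 and replicate 3 at 1.72 and 1.62, with FSH in Cy5 given first. The difference lay in the FSH pools, at 8.55, 7.79, 8.93 and 7.78, against 7.76, 7.80, 7.67 and 7.70 in the controls. FSH pools 1 and 3 were above every other pool, as they were for EMBV3_31305 by a smaller margin, and FSH pools 2 and 4 lay within the range of the controls. This probe exceeded the limit on all 8 arrays in both channels. With the replicate block its adjusted p was 0.0698, the lowest among its 13 alternatives. The mean was 0.53 from the scanner intensities and 0.50 without replicate 3. Across the 8 pools its signal had r = 0.57 with EMBV3_31305 and r = -0.16 with EMBV3_16335. The files do not say which part of the transcript each probe binds.

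**Figure D3:**
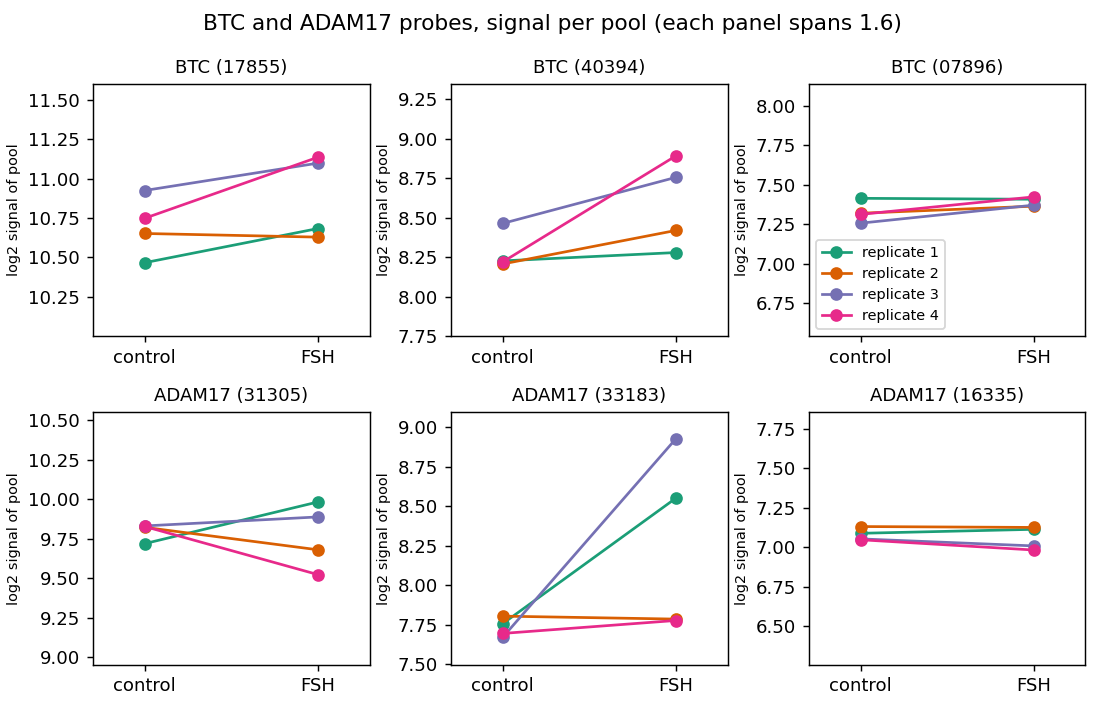
Normalized log2 signal of each pool for the 3 BTC probes (top row) and the 3 ADAM17 probes (bottom row), with control and FSH pools of one replicate joined by a line. Every panel spans the same height, so slopes can be compared. FSH pools 1 and 3 stand out for ADAM17 probe EMBV3_33183 at 8.55 and 8.93, and the same pools are the highest, by less, for EMBV3_31305 at 9.98 and 9.89.

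ADAM10 is the protease that releases BTC and EGF, as shown in mouse cells. Its log2 ratios were 0.11, 0.45, -0.058 and -0.019, with replicate 2 alone well above 0. The mean was 0.12 ± 0.23 (SD, n = 4), with a 95% interval of -0.13 to 0.38 and an adjusted p of 0.737 in limma. Pool signals were 7.10 to 7.41 with FSH and 7.13 to 7.30 in controls. Without replicate 2 the mean was 0.013.

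ERRFI1, also called MIG6, binds the kinase domain of EGFR and inhibits it, and is induced by EGFR signalling. Its log2 ratios were 0.15, 0.115, 0.31 and -0.35. Replicate 4 lay opposite to the other replicates. The mean was 0.056 ± 0.28 (SD, n = 4), with a 95% interval of -0.23 to 0.34 and an adjusted p of 0.906 in limma. Pool signals were 7.67, 7.66, 7.70 and 7.48 with FSH and 7.66, 7.68, 7.53 and 7.68 in controls, so FSH pool 4 and control pool 3 were the low pools.

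Dye orientation and slide coincide in this study, so the 2 orientations were also compared directly. Of the 12 member probes 0 passed the limma test of that difference at an adjusted p under 0.05, against 9.79% of all tested probes. With ratios from the scanner intensities after loess 3 member probes passed, 2 of BTC and 1 of ADAM17, against 28.8% of all probes. With no background correction 5 passed, against 45.7%, and after median centring 0, against 0.147%. At an unadjusted p under 0.05 there were 3 of 12 member probes, of AREG, HBEGF and ADAM17 (EMBV3_16335), against 27.1% of all probes, and their median intensities were 1.09, 1.03 and 1.13 times the limit in the FSH channel. When the test of FSH against control used 1 slide alone, 0 member probes passed on either slide. Of all 35978 probes 56 passed on the slide with Cy5 for FSH and 2 on the other. At an unadjusted p under 0.05 there were 4 member probes on the slide with Cy5 for FSH, against 17% of all probes, and 2 on the other, against 16.9%.

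**Figure D4:**
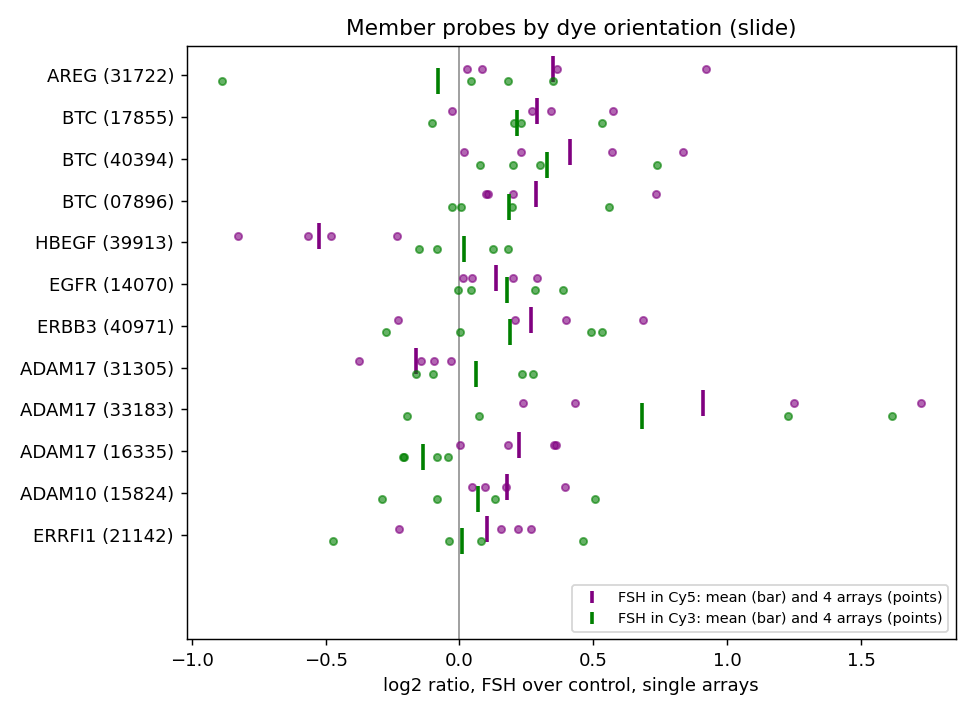
Log2 ratio of FSH over control on each single array, by dye orientation, which is also the slide, without TGFA. Points are arrays and bars are means of 4 arrays. The orientations lie apart for HBEGF (means of -0.53 and 0.017) and AREG (0.35 and -0.078). Their means lie side by side for the BTC, EGFR and ERBB3 probes, though single arrays of one replicate can differ, as for BTC probe EMBV3_07896.

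Of 57 further symbols of the EGF pathway (other ligands, receptor ERBB4, release and trafficking factors, adaptors, the RAS to ERK cascade and receptor down-regulation), 47 had a probe and 44 were tested. EREG, the epiregulin gene, had no probe under that symbol, and ERBB4, ADAM12 and SRC were too dim. In the limma fit 0 of the 44 passed. At an unadjusted p under 0.05 there were 2 higher and 2 lower with FSH, against 6.68% and 5.9% of all genes in the same fit, or 12.6% together, each gene represented by its brightest probe. The log2 ratio was 0.44 ± 0.39 (SD, n = 4) for KSR1, a scaffold of the RAF, MEK and ERK kinases, and 0.22 ± 0.094 for NRG3, a neuregulin that binds ERBB4. It was -0.22 ± 0.14 for HGS, which sorts ubiquitinated receptors in endosomes, and -0.31 ± 0.28 for RHBDF1, a rhomboid pseudoprotease that brings ADAM17 to the cell surface. For these 4 genes limma gave adjusted p from 0.421 to 0.445. Their means from the scanner intensities were smaller, at 0.16, 0.027, -0.023 and -0.18 in the same order. Their mean log2 signals were 7.24, 7.21, 7.26 and 7.86, and the offset used in background correction compresses differences at low signals. The median of the 44 was 0.0075, against 0.0040 over all 13319 tested genes.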

How the data were processed

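Two-colour arrays were measured in 4 FSH and 4 control pools (8 arrays, 45220 spots each). The deposited scanner files hold spot and local background intensity on a linear scale, per the file headers. The authors deposited a log2 ratio per array, turned to FSH over control in the series matrix. It equals their normalized table after turning. Its r with the scanner log2 ratios was 0.423 to 0.732 across probes. For that r the scanner ratios were taken with an offset of 50, before background correction and normalization. The background correction and normalization of the deposited ratios are not given in the sources used here.

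Log2 ratios of both orientations were averaged per replicate and fitted with limma 3.58.1 (statmod 1.5.0, R 4.3.3) over 35978 probes, with Benjamini-Hochberg adjustment at 0.05. Probes were kept if above the mean plus 2 SD of 153 negative control spots on at least 1 array in at least 3 of 4 replicates, in either group's channel. Pool signals came from the scanner files (normexp with offset 50, loess, Aquantile, both dyes averaged). The brightest probe represented a gene in lists. All members are named, and other pathway genes only at an unadjusted p under 0.05. The fit was also run on simulated data with independent normal errors, without the dye, slide or between-probe structure of these arrays. That run cannot show how the fit behaves under such structure. Gene names are those of the platform annotation and may be dated; all 10 member symbols are in the RefSeq gene table. Arrays of one replicate number carry the same extracts, and their deviations correlated with r = 0.44, 0.57, 0.68 and 0.56. Members and lists were chosen with earlier results of these data known. Alternatives covered normalization, background, filter, replicates, orientation and block.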

Additional observations from a re-analysis of the deposited data

Results flagged for a closer look

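Groups of 4 values were set against Dixon's 95% value, for the ratios, FSH pools and control pools of 13 probes. Of the 39 groups 5 held a value far from the others. Chance gives about 5% of independent groups. These groups share arrays and genes, so the count cannot be judged against that share. Control pool 3 stood above the other controls for BTC probe EMBV3_40394, at 8.46, and below them for ERRFI1, at 7.53. Control pool 1 was low for ADAM17 probe EMBV3_31305, at 9.72. FSH pool 2 was high for ADAM10, at 7.41, and FSH pool 4 was low for ERRFI1, at 7.48. For ADAM17 probe EMBV3_16335 all 4 arrays with FSH in Cy5 lay above 0 and all 4 with FSH in Cy3 below it. The nearest arrays were at 0.00096 (replicate 3, FSH in Cy5) and -0.041 (replicate 1, FSH in Cy3). The difference was 0.36 with an adjusted p of 0.0621 in limma, a test that 9.79% of all probes passed. This probe exceeded the limit on 5 of 8 arrays with FSH and on 6 of 8 with control. The share of all probes with arrays separated in this way was not counted.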

How the results depend on the processing

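The number of arrays and the dim signal of most members limit precision. Member probes passing the FSH test stayed at 0 under every alternative, as did the other EGF pathway genes. Over all probes 56 passed with FSH in Cy5 alone, 2 with FSH in Cy3 alone, and 0 to 42 when a replicate was left out (42 without replicate 3). With the replicate block 712 probes passed, and 465 with the replicate block and a dye term (1.98% and 1.29%), 0 of them members. These blocked fits treat the 2 arrays of one pair of extracts as separate values joined by a common correlation. Member probes with means above 0 numbered 6 with scanner loess values, 9 with median centring and 7 with no background correction.

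Counts at an unadjusted p under 0.05, an alternative chosen after seeing the data, were 5 of 12 as reported, 1 with scanner loess values, 4 with median centring, 3 without background correction, 5 of 13 with no filter, 2 of 8 under the stricter filter, 4 with FSH in Cy5 alone, 2 with FSH in Cy3 alone, 3 with the replicate block, 4 with the block and a dye term, and 2 to 5 when a replicate was left out. The shares of all probes were 10.4%, 7.49%, 6.43%, 9.43%, 9.81%, 12%, 17%, 16.9%, 13.7%, 12.8% and 6.23% to 11.5% in the same order. Member probes differing between orientations numbered 3 with scanner loess values, 0 with median centring, 5 without background correction, and 0 to 1 when a replicate was left out, against 28.8%, 0.147%, 45.7% and 3.17% to 4.89% of all probes.

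Directions turned as follows; the cause was not tested. Scanner values with loess gave -0.042 for EGFR, -0.022 for ADAM17 EMBV3_16335, -0.0057 for ADAM10 and -0.0095 for ERRFI1. Median centring gave -0.032 for EGFR, 0.0061 for ADAM17 EMBV3_31305 and -0.014 for EMBV3_16335. No background correction gave -0.068 for EGFR, -0.015 for EMBV3_16335 and -0.0041 for ERRFI1. FSH in Cy3 alone gave -0.078 for AREG, 0.017 for HBEGF, 0.062 for EMBV3_31305 and -0.14 for EMBV3_16335. Leaving out a replicate gave -0.0032 to 0.32 for AREG, -0.028 to 0.19 for ERRFI1 and -0.11 to 0.023 for EMBV3_31305. BTC, ERBB3 and EMBV3_33183 kept their direction under all alternatives run. The changed filters and the blocked fits leave a mean as it is and could not turn it. Leaving out a replicate could not turn a probe with all replicates above 0.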

Other observations

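The pattern of ADAM17 probe EMBV3_33183, high in FSH pools 1 and 3, was looked for among all tested probes after its values had been seen, so what follows is a description without a test. The named gene most like it over the 8 pools was SNAI2, a transcriptional repressor of the Snail family, with r = 0.986; SNAI2 stood at 8.20, 7.12, 8.69 and 7.17 in FSH pools 1 to 4 and at 7.00 to 7.38 in controls. In 10 probes both FSH pools exceeded the other 6 pools by over 0.5 on the log2 scale, this one included. Besides SNAI2 they comprised 2 probes of the AP-1 gene FOSB, the transcription factor gene ETS2, the polo-like kinase gene PLK2, the small GTPase gene RASL11B and 3 probes without a symbol. For FOSB (EMBV3_34681) and ETS2, FSH pools 2 and 4 lay at 7.67 to 8.40 and control pools 1 and 2 at 8.95 to 9.85, so the FSH pools fell on both sides of these controls. PLK2 had FSH pools at 10.29, 8.63, 10.85 and 9.55 and controls at 8.01 to 8.15, with a log2 ratio of 2.23 ± 1.08 (SD, n = 4) and an adjusted p of 0.270 in limma.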
